A study of Homo sapiens with 15 samples.

Results

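The BG4 regions of chromosome 19 numbered 1009 of the 8955 high-confidence regions deposited for K562, an established human chronic myelogenous leukaemia line. They were all regions of that list that lie on chromosome 19, whatever their strength. The 15 mitochondrial regions were left out, so that 8940 nuclear regions remained. BG4 is an antibody raised against the DNA G-quadruplex (G4), and chromatin precipitated with it was sequenced in 5 libraries of asynchronous cells, with no treatment given in the labels. Libraries 1a and 1c are technical libraries of biological replicate 1, and 2a, 2b and 2c those of biological replicate 2; values for the 5 libraries are listed in that order throughout. Each library had 1 deposited peak list of 8044 to 12484 nuclear peaks, of which 908 to 1340 lay on chromosome 19. The 8940 nuclear regions were identical to the sequence that 3 or more of the 5 lists share. The 2 input libraries and the 8 bisulfite libraries of HaCaT keratinocytes were not analysed here. Lists 2a and 2c carry each other's letter in their peak names. Here the sample labels decide, and a value for one of the pair may belong to the other.

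A G4 is a stack of planar guanine tetrads that DNA with several runs of guanines can form, and such sequence is frequent at the promoters of active human genes, where CpG islands are common. Chromosome 19 is the most gene-dense human chromosome and is rich in GC. It also carries long tandem clusters of genes for zinc finger proteins, many of them KRAB repressors that bind retroelements and recruit TRIM28, beside families such as the kallikreins, the leukocyte receptors and the pregnancy-specific glycoproteins.

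The sequences below come from the promoter regions that ranked highest by fold enrichment on the chromosome, in a dense bin or in a zinc finger cluster, and were taken among those with a G4 motif outside exons. A G4 motif was taken as GGG repeated 4 times with loops of 1 to 7 of any base (N), on either strand, wholly inside the region, and runs could be longer than GGG. It was present in 383 of the 1009 regions (38.0%, 95% Wilson interval 35.0 to 40.99) and in 34.3% of the regions of other chromosomes. The capitals mark the motif, the lower case its flanks of up to 20 bases inside the region, all outside annotated exons, and each sequence is written 5′ to 3′ on the strand that carries the guanines. Positions are on hg19.
KLF16, chr19:1863893-1863956, minus strand: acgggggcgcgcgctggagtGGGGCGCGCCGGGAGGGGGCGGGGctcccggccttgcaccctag
MED26, chr19:16739163-16739227, minus strand: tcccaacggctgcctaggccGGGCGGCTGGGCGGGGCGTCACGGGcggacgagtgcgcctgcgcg
ANKRD27, chr19:33166267-33166327, plus strand: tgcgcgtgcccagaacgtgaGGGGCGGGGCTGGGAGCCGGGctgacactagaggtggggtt
HAUS8, chr19:17186436-17186480, plus strand: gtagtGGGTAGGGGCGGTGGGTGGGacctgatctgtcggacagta
CARM1, chr19:10981567-10981614, plus strand: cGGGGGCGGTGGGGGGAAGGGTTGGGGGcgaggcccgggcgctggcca
CCDC9, chr19:47760504-47760575, plus strand: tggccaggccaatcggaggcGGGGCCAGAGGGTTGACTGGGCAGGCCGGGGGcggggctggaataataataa
ZNF787, chr19:56632676-56632744, minus strand: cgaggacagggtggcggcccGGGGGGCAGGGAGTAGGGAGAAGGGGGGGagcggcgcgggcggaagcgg
Distances were taken to the nearest start site of the named gene itself, also where a region was shared with another gene. The middle of the motif lay 347 bp upstream of that start site at KLF16, 180 bp at MED26, 211 bp at ANKRD27, 16 bp at HAUS8, 648 bp at CARM1 and 46 bp at ZNF787, and 758 bp downstream of it, in an intron, at CCDC9. Not every strong region held a motif. Of the 8 promoter regions that ranked highest over the 5 libraries 5 held one, and those of BLVRB with SPTBN4, KDM4B and GATAD2A held none. The ZNF787 motif held 21 guanines in 29 bases.

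Chromosome 19 held 18.1 regions per Mb of sequence, against 2.83 per Mb on the other nuclear chromosomes. This was 5.78 times the number given by its length, 1.56 times that given by its protein-coding genes and 1.44 times that given by its strict CpG islands. Chromosome 17 had 7.51 regions per Mb, chromosome 22 had 7.19 and chromosome 16 had 6.78. In the 5 peak lists chromosome 19 took 10.7%, 11.1%, 11.3%, 10.8% and 10.8% of the peaks. The share was close to the same in every library, with a mean of 10.96% ± 0.0324 (SD, n = 2 biological replicates). Its regions stood a median of 18.7 kb apart, against 73.5 kb on other chromosomes, and 14.6% of the spacings were under 1 kb, against 8.24%. K562 is aneuploid and the copy number of each segment was not measured here, so copy number and BG4 signal per copy cannot be told apart. Intervals given for shares cover counting error only, neighbouring regions and genes are not independent, and the number of reads per library is unknown.

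The regions were unevenly spread along the chromosome. Band 19p13.3, at the end of the short arm, held 217 regions, or 31.7 per Mb. Close behind it came 19q13.32 with 30.7 per Mb, 19q13.33 with 30.3 and 19p13.11 with 29.5. Band 19p12, next to the centromere, held 5 regions, or 1.15 per Mb, and 19q12 on the other side held 7, or 1.84 per Mb. The peak lists gave the same contrast, with 46.8, 41.4, 28.9, 30.3 and 37.7 peaks per Mb in 19p13.3 and 1.84, 1.15, 1.15, 1.15 and 1.84 in 19p12. The values of these 2 bands did not overlap. The short arm held 522 regions (21.4 per Mb) and the long arm 487 (15.5 per Mb). The small band 19p13.13 held 10 regions in 0.1 Mb, of which 1 was at a protein-coding promoter, that of ZSWIM4. The others lay within ZSWIM4, at the start of MIR23AHG, the host transcript of a microRNA cluster, in an intron of NANOS3, or between these genes.

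**Figure D1:**
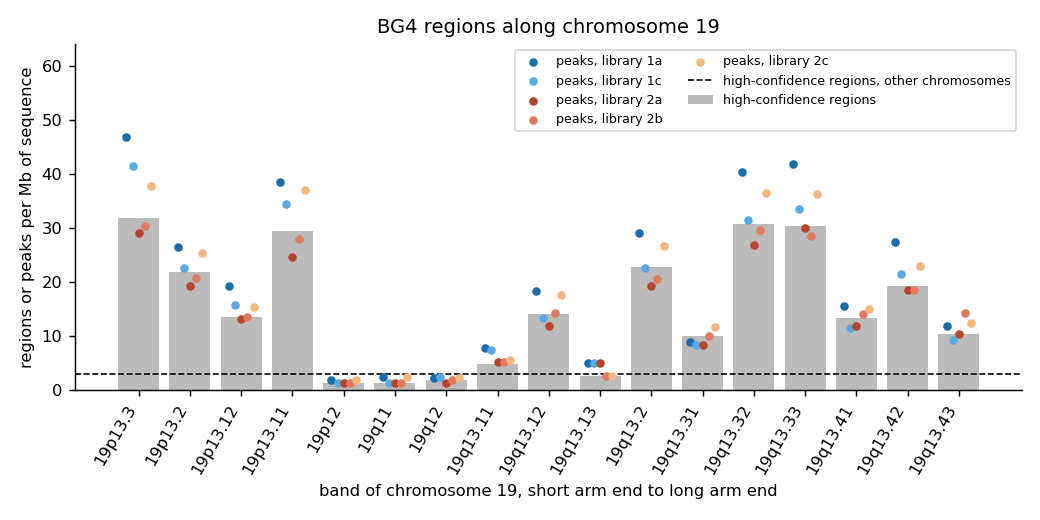
High-confidence regions per Mb of sequence (bars) and peaks per Mb in each of the 5 libraries (points) in the bands of chromosome 19 with over 0.3 Mb of sequence, from the end of the short arm on the left to the end of the long arm on the right. The dashed line is the density of the high-confidence regions on all other chromosomes, 2.83 per Mb, and 19p12, 19q11, 19q12 and 19q13.13 lie below it.

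In bins of 1 Mb the densest stretch was chr19:1000001-2000000 with 72 regions, 40 of them at promoters, where 74.9% of all nuclear regions were at promoters. A promoter was the sequence 1 kb to either side of the start site of a protein-coding transcript. In this bin 30 of 38 protein-coding genes had a promoter region, against 34.3% of the genes of the genome. It ranked first in all 5 lists, with 97, 85, 63, 63 and 82 peaks. The next bins, chr19:49000001-50000000, chr19:18000001-19000000, chr19:17000001-18000000 and chr19:10000001-11000000, held 44, 40, 39 and 36 regions. These 5 bins together held 231 regions (22.9%), and the median over the 56 bins that are mostly sequence rather than assembly gap was 19. Within the densest bin, 17 regions lay in the 100 kb around STK11, a tumour suppressor kinase, ATP5F1D, a subunit of mitochondrial ATP synthase, and CIRBP, a cold-inducible RNA-binding protein. A further 15 lay in the 100 kb around POLR2E, a subunit shared by the RNA polymerases, and GPX4, which reduces lipid peroxides. Outside that bin, 14 regions lay around BBC3, which encodes the pro-apoptotic protein PUMA, and 13 between ERCC1, a DNA repair nuclease subunit, and VASP, an actin regulator. The bins and windows were chosen for their counts, so their shares of genes with a region are given as description only.

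Across the 56 bins the number of regions ranked with the number of genes other than zinc finger genes (Spearman's rho 0.87), with GC content (0.87) and with strict CpG islands (0.82). It ranked less closely with all genes (0.74), and inversely with zinc finger genes (-0.31). These are descriptions over bins that share libraries and base composition. A strict island here is a stretch of 500 bp windows whose GC share reached 0.55 and whose CpG count, over that expected from the bases, reached 0.65.

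Several long stretches had no region. The longest, chr19:24270050-28284789, spans the centromere, and 3.1 Mb of its 4.01 Mb is an assembly gap. The next, chr19:30433198-32896367, is 2.46 Mb long and holds ZNF536, TSHZ3 and ZNF507, all with a strict island at a promoter, between URI1 and DPY19L3. ZNF536 encodes a zinc finger repressor of neuronal differentiation and TSHZ3 a developmental transcription factor. The lists had 2, 1, 0, 1 and 2 peaks there. The third, chr19:21324859-23254126, lies in 19p12 and holds 15 genes, all of them zinc finger genes and 10 with a strict island. Another stretch of 1.07 Mb, chr19:42901339-43967477, holds 16 genes that include LIPE, the hormone-sensitive lipase, CEACAM and PSG genes, and none of them has a strict island. Bins chr19:22000001-23000000, with 8 zinc finger genes, and chr19:31000001-32000000, with 1 gene, had no peak in any of the 5 lists.

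Zinc finger genes in clusters carried promoter regions less often than the other genes of the chromosome, but over all genes this difference was absent at equal promoter GC content. A cluster was a run of at least 5 genes named ZNF, ZFP, ZSCAN, ZKSCAN, ZIM or ZIK with gaps of at most 250 kb. Of the 246 clustered genes 64 had a promoter region (26.0%, 20.9 to 31.8), against 526 of the 1170 genes of chromosome 19 that are not zinc finger genes (45.0%, 42.1 to 47.8). The share over all 19785 protein-coding genes of the genome was 34.3%. The difference was -18.9 percentage points (Newcombe interval -24.8 to -12.5). By library it was -16.7, -21.4, -15.8, -14.3 and -14.5, negative in 5 of 5, with a mean of -16.9 ± 2.97 (SD, n = 2 biological replicates). Counting only regions with a peak in all 5 libraries, the shares were 13.4% of the clustered genes and 32.8% of the others. With regions of any library the clustered genes reached 47.6%, and the difference was -9.53 points. The promoter GC content of a gene was taken at its most GC-rich start site, whether or not that start site had the region. When the other genes of chromosome 19 were weighted to the deciles of promoter GC content of the clustered genes, their share was 25.6%, and the clustered genes differed from it by 0.44 points. By library that difference was 4.30, -1.35, 2.70, 3.48 and 6.12 points, so its sign was not the same in all. No test was made over the 2 biological replicates.

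Strict CpG islands were more frequent at the clustered genes. An island lay at 90.7% of the clustered zinc finger genes and at 72.0% of the other genes of the chromosome. Among island genes the shares were 27.8% (22.3 to 34.0) and 60.5% (57.1 to 63.7), a difference of -32.6 points (-39.0 to -25.6), where the genome's island genes had 45.1%. The median promoter GC content, as defined above, was 52.8% in the clustered zinc finger genes and 59.4% in the others. Genes of other chromosomes weighted to the same deciles of promoter GC content would give 31.2% for the clustered genes and 40.3% for the others, and among island genes 41.1% and 47.0%. The clustered genes lay below these values and the others above them. Against the island genes of chromosome 19 itself, weighted to the same deciles, 221 clustered island genes had 28.1%, where the weighted share of the others was 47.7%. That difference was -19.6 points, and -20.5, -18.8, -16.3, -16.9 and -14.3 by library. Against the other genes of chromosome 19 at equal GC content, the clustered genes were thus lower among island genes but not over all genes. The smallest decile held 6 other island genes of chromosome 19. Against genes of other chromosomes at equal GC content the clustered genes were lower in both, by -5.21 points over all genes and -13.3 among island genes.

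**Figure D2:**
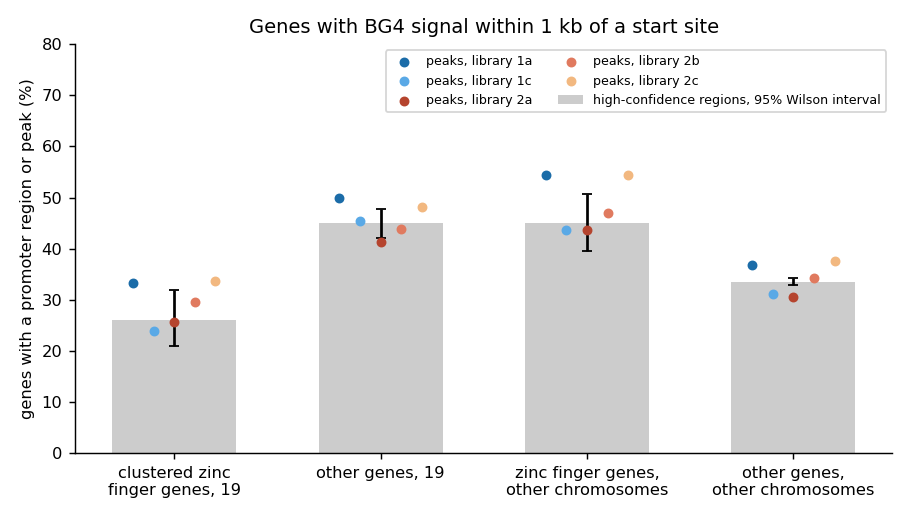
Share of protein-coding genes with BG4 signal at a promoter, in high-confidence regions (bars, with 95% Wilson intervals) and in the peaks of each of the 5 libraries (points). The clustered zinc finger genes of chromosome 19 stood at 26.0%, the other genes of chromosome 19 at 45.0%, zinc finger genes of other chromosomes at 45.0% and other genes of other chromosomes at 33.6%.

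Zinc finger genes outside the clusters had a higher share. The 17 zinc finger genes of chromosome 19 outside clusters had a promoter region in 10 cases (58.8%, 36.0 to 78.4), and the clustered genes differed from them by -32.8 points (-53.0 to -9.26). Their median promoter GC content was also higher, 57.3%. Against the 302 zinc finger genes of other chromosomes, of which 136 had a region (45.0%), the clustered genes differed by -19.0 points (-26.6 to -11.0), at a median promoter GC content of 55.4% in the genes of other chromosomes. Neighbours in the clusters were also low. Of the 65 genes inside cluster spans that are not zinc finger genes 16 had a region (24.6%), against 46.2% of the 1105 outside, a difference of -21.5 points (-30.9 to -9.49). Among their island genes the shares were 40.0% inside the spans and 61.5% outside. The median promoter GC content was 54.8% inside and 59.7% outside, and its part in these 3 differences was not tested.

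The 12 clusters spanned 13.2 Mb, or 23.7% of the sequence and 21.7% of the genes of the chromosome, and held 99 of its regions (9.81%, 8.13 to 11.8). That is 7.48 regions per Mb inside the clusters and 21.4 outside. In the peak lists the share of chromosome 19 peaks inside clusters was 9.48%, 7.94%, 9.91%, 11.1% and 10.98%. The 19p12 cluster, from ZNF737 to ZNF254, had regions at 3 of 29 genes, ZNF430, ZNF431 and ZNF254. The cluster from ZNF317 to ZNF846 had 1 of 12 and that from ZIM3 to ZNF446 had 9 of 49. The cluster from ZNF653 to ZNF791 had 12 of 25, and the short clusters of GC-rich promoters from ZNF554 to ZNF77 and from ZNF628 to ZNF581 had 4 of 5 and 4 of 7. In 9 clusters the share was below that of the other genes of chromosome 19, and in 3 above it. The Wilson interval lay wholly below that share in 5 clusters, and the intervals of the 3 above it hold it.

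**Figure D3:**
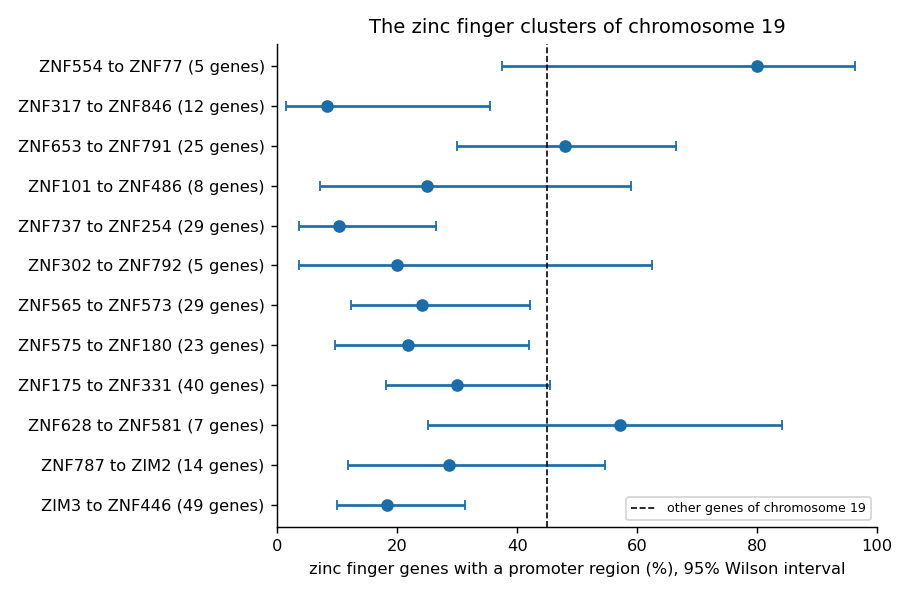
Share of zinc finger genes with a promoter region in each of the 12 clusters of chromosome 19, named by the first and last zinc finger gene, with 95% Wilson intervals. The dashed line is the share of the genes of chromosome 19 that are not zinc finger genes, 45.0%. Above it lie 3 clusters, with intervals that reach below it.

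ZNF787 had the highest lowest percentile of fold enrichment of any clustered zinc finger gene, with fold enrichments of 12.8, 9.69, 11.9, 10.1 and 12.2. Fold enrichment is the authors' ratio of signal at the summit to local background, used here within each list. In single libraries others were higher, such as ZNF8 with 16.9 in 1a. ZNF254, the highest by the same measure in the cluster from ZNF737 to ZNF254, had 5.76, 7.32, 4.94, 5.35 and 7.74, below ZNF787 in every library. Of the 84 regions at zinc finger promoters 53.6% had a peak in all 5 libraries, 30.95% held a G4 motif and the median width was 186 bp. Of the other promoter regions of the chromosome 64.4% had a peak in all 5, 39.9% held a motif and the median width was 239 bp. These differences are given without intervals, and the part of width in them was not tested.

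The genes of chromosome 19 that are not zinc finger genes had regions more often than those of other chromosomes, 45.0% against 33.6%, a difference of 11.4 points (8.48 to 14.3). Among strict island genes the shares were 60.5% and 44.3%, a difference of 16.1 points (12.7 to 19.5). A high share was not particular to chromosome 19. With zinc finger genes included, 41.9% of its genes had a region, against 47.1% on chromosome 16, a difference of -5.23 points (-9.44 to -1.01). Chromosomes 17 and 22 had 37.1% and 37.5%. Among all strict island genes the shares were 53.7% on chromosome 19 and 58.2% on chromosome 16. The gene families of the chromosome differed widely. All 13 genes of cytosolic ribosomal proteins had a region, as did 12 of 16 of the mitochondrial ribosome and respiratory chain, 13 of 15 of the chromatin and DNA methylation list and 6 of 9 of the DNA repair and replication list. Among these were RPL18, NDUFA11, a complex I subunit, UHRF1, which guides maintenance methylation, and TRIM28, the partner of KRAB zinc finger proteins. The 6 of the repair list include RFXANK, a transcription factor subunit that is not a repair or replication gene. All members of these 4 lists had a strict island, so the share to set beside them is the 60.5% of island genes. The intervals of the mitochondrial list (50.5% to 89.8%) and the repair list (35.4% to 87.9%) hold that share. KIR, LILR and other genes of the leukocyte receptor complex had 0 of 20, the olfactory receptors 0 of 20, the Siglecs 0 of 11, CEACAM and PSG genes 0 of 22 and cytochrome P450 genes 0 of 12. In all, 11 of the 19 lists had no region at any of their 119 members, and 13 of those members had a strict island. Of the chromosome's genes without a strict island that are not zinc finger genes, 17 of 328 had a region (5.18%, 3.26 to 8.14), and 106 of the 119 members were of that kind. The Wilson upper limits of these shares ran from 14.9% for the 22 CEACAM and PSG genes to 56.15% for the 3 imprinted genes. Values of tandem families, zinc finger genes included, are uncertain, because the placing of reads from near-identical gene copies is not given in the sources used here.

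The kallikrein genes, which encode secreted serine proteases, had regions at 4 of 15 members, KLK4, KLK8, KLK13 and KLK15. Their interval, 10.9% to 51.95%, holds both the 34.3% of all genes and the 45.0% of the chromosome's genes other than zinc finger genes. A strict island lay at 4 of the 15. KLK8 had a region without an island, and KLK10 an island without a region. Of the 11 blood lineage genes 8 had a region, and among them were BLVRB, biliverdin reductase B, LYL1, a haematopoietic transcription factor, CALR, which encodes calreticulin, and TYK2, a JAK family kinase. CEBPA and JAK3 had none. KLF1, the erythroid Krüppel-like factor, had a promoter peak in 4 libraries but no high-confidence region. Of the 11 members 9 had a strict island. The interval of the list, 43.4% to 90.3%, holds the 60.5% of the chromosome's island genes other than zinc finger genes. The list was a hand choice and holds members not confined to blood, such as CALR. It leaves out AZU1, ELANE and VAV1, blood cell genes of the chromosome without a high-confidence region. The imprinted genes PEG3, ZIM2 and ZNF331 had none, though all had an island. Peak lists hold no expression, so these counts describe promoters alone, and the lists were chosen with results known.

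**Figure D4:**
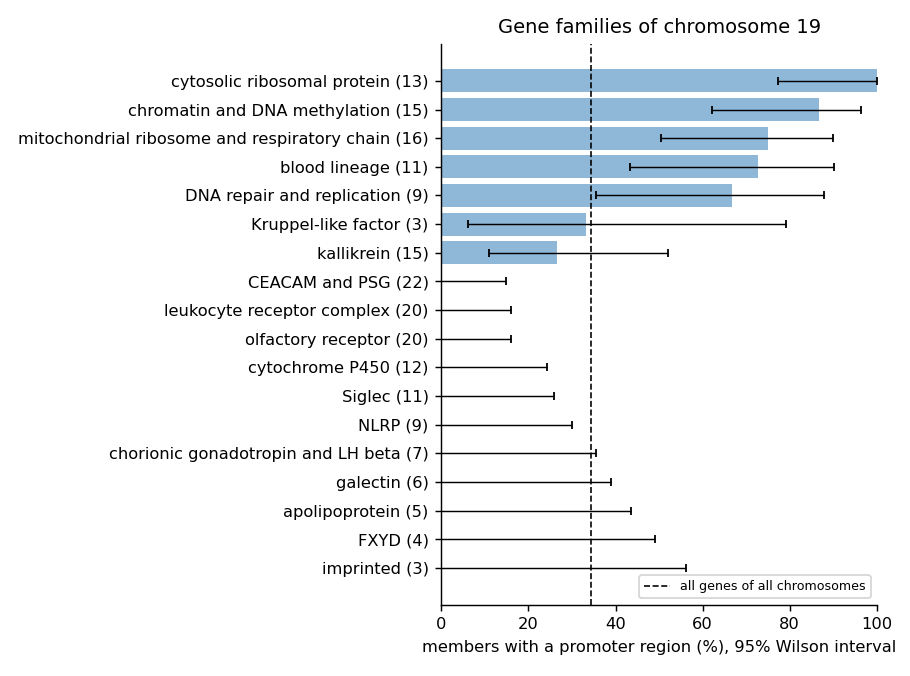
Share of members with a promoter region in the gene lists of chromosome 19 other than zinc finger genes, with the number of members in brackets and 95% Wilson intervals. The dashed line is the share over all protein-coding genes of the genome, 34.3%, and 11 lists have no member with a region.

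The promoter share of the regions was lower on chromosome 19 than elsewhere. Of the 1009 regions 646 were promoter regions (64.02%, 61.0 to 66.9), against 76.3% on other chromosomes. The share over all nuclear regions was 74.9%. The difference was -12.2 points (-15.4 to -9.19). In the lists it was -5.81, -5.43, -11.8, -10.8 and -9.77, with a mean of -8.22 ± 3.67 (SD, n = 2 biological replicates). All 5 libraries had the same direction, and both libraries of replicate 1 lay nearer to 0. With regions of any library it was -4.35 points, and with start sites of every gene type -6.47. Against chromosome 22, which had 67.3%, the difference was -3.31 points (-9.58 to 3.38) and its interval holds 0.

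The regions away from protein-coding promoters fell into several kinds. At other start sites lay 156 regions (15.5%, against 9.68% on other chromosomes), of which 120 were at other transcripts of protein-coding genes and 27 at long non-coding RNAs. Introns held 104 regions (10.3%, against 6.18%), exons 31 (3.07%, against 0.883%), and 72 lay outside genes (7.14%, against 6.99%). The strongest of those away from promoters was in an intron of LMTK3, a kinase gene of 19q13.33, at chr19:48996073-48996915. Its fold enrichment was 23.8, 17.8, 14.9, 14.8 and 15.9, and it stood above 99% of the peaks of each list. Others lay within RYR1, the calcium release channel of skeletal muscle, and at start sites of other transcripts. The protein-coding start sites nearest to these included those of NFIC, a transcription factor, and PRKD2, a kinase. The region named by NFIC lay at -28796 bp from its start site, outside that gene and within CELF5. Of the genes with a region 22.5% had at least 2 regions, against 11.5% on other chromosomes, and CIC, a repressor, PDE4A, a phosphodiesterase, and HNRNPL, a splicing factor, had 4 each.

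Peaks of chromosome 19 ranked near the middle of their lists. Their median percentile of fold enrichment was 54.8, 56.1, 52.5, 48.9 and 51.9, and that of the peaks of other chromosomes was 49.6, 50.2, 50.3, 49.5 and 49.6. The difference averaged 3.46 ± 2.99 (SD, n = 2 biological replicates). It was positive in 4 libraries and negative in 2b, and its mean was close to its SD. Of the regions of chromosome 19 59.0% had a peak in all 5 libraries, against 54.5% elsewhere, a difference of 4.49 points (1.23 to 7.68). Against chromosome 17 alone this difference was 8.11 points, with an interval wholly positive. It was 4.39 points for 16 (-0.786 to 9.58) and 1.60 for 22 (-5.10 to 8.47), with both signs in either interval. A higher share than on chromosomes 16 and 22 was thus not shown. The G4 motif share differed by 3.70 points (0.575 to 6.91), while the median GC content of the regions was 68.1%, against 70.3%. Against single chromosomes the motif share differed by 1.66 points for 17 (-3.29 to 6.52), 3.94 for 16 (-1.12 to 8.87) and 0.508 for 22 (-6.30 to 7.02). Each of these intervals included both signs. Within the chromosome, 75.2% of the regions with a motif had a peak in all 5 libraries, against 49.0% of those without, and their median widths were 282 and 187.5 bp. A wider region has more room for a motif, and the part of width was not tested.

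The promoter regions that ranked highest in all 5 libraries, chosen by that rank and so given as description, were led by KLF16, a Krüppel-like transcription factor. Its region, chr19:1863586-1864323, had fold enrichments of 19.2, 14.6, 16.7, 14.4 and 15.5, above 99% of peaks in each list. The region shared by BLVRB and SPTBN4, a spectrin gene, had 15.7, 15.1, 17.5, 12.4 and 12.9. KDM4B, a histone demethylase, lay between 12.5 and 14.2, the narrowest range of the group. GATAD2A, a subunit of the NuRD complex, had 18.1, 15.5, 11.8, 10.9 and 11.98, with both libraries of replicate 1 above all of replicate 2. MED26, a Mediator subunit, CCDC9, IZUMO4 with MOB3A, and ANKRD27 with RGS9BP followed, between 10.2 and 19.9. CARM1, an arginine methyltransferase, had 20.8, 16.3, 16.9, 8.01 and 8.66, and there 2b and 2c lay far below the others.

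**Figure D5:**
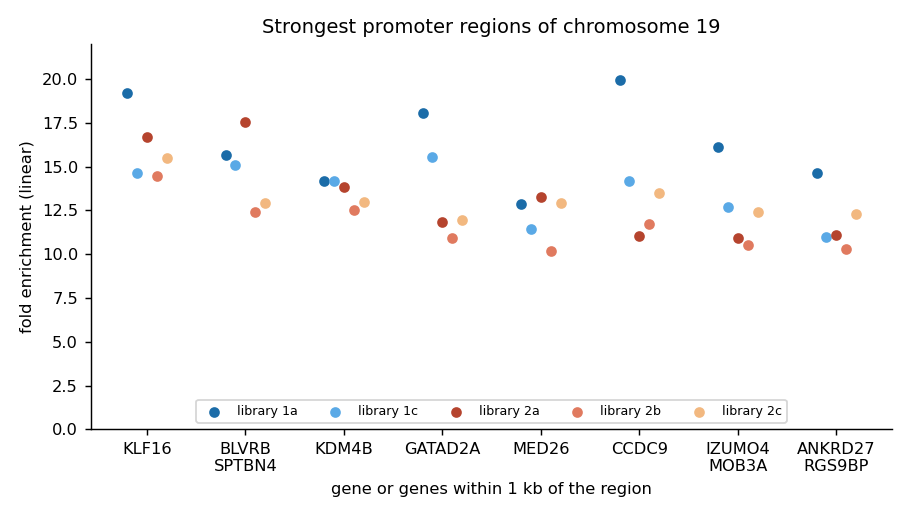
Fold enrichment (linear) in each of the 5 libraries at the promoter regions of chromosome 19 with the highest lowest percentile over the libraries, ordered by that percentile from left to right. The KLF16 region lies between 14.4 and 19.2, and the MED26 region between 10.2 and 13.3.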

How the data were processed

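Peaks were called with MACS2 on hg19, per the submitters' processing notes; the aligner, control library, settings and version are not given in the sources used here. In the deposited peak lists the score, the fold enrichment (a ratio), and the −log10 p and −log10 q values are the authors' own, 1 list per library. The lowest −log10 p of a list lay between 5.00 and 5.05. Here they served to rank and filter within 1 list. The high-confidence list was deposited by the authors as positions alone. No column of the whole-series list was left unmatched (0).

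Start sites were those of basic protein-coding transcripts in GENCODE 44 mapped to GRCh37, with 1 gene per symbol. Features were counted as overlapping at 1 base or more. Looser CpG islands used 200 bp windows, with GC of 0.5 and CpG ratio of 0.6 as minimum. A region belonged to the band and bin of its middle. Band limits came from the standard hg19 ideogram, entered by hand. Shares have 95% Wilson intervals, differences Newcombe intervals and the ratio to length an exact binomial interval. An SD is over biological replicates, each the mean of its technical libraries. No test over regions or genes was made. The genes named were the 10 whose worst percentile of fold enrichment among the 5 libraries was best, up to 4 best members of each list and the first 2 in alphabetical order without a region, the best gene of each of the 5 densest bins and of each cluster, and the genes beside the widest region-free stretches. Genes of dense 100 kb windows, of regions away from promoters and those with several regions were named after their values were seen. The members and lists were chosen with earlier results of these data known. Steps were tested on simulated data. Python 3.11.15, NumPy 2.4.6, pandas 2.3.3 and SciPy 1.17.1 were used.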

Additional observations from a re-analysis of the deposited data

Results flagged for a closer look

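Of 64 sets of 5 library values, 4 had a highest or lowest value far from the other libraries; chance gives about 1 in 20. The fold enrichment at KLK8 was 11.957 in 1a, above the other libraries. At ZNF576 it was 11.907 in 2a, also above them. At RPL13A it was 5.6408 in 2c and at CALR 7.4185 in 2b, both below the rest.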

How the results depend on the processing

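Each of 9 results was recomputed under alternatives, 95 in all, and 1 reversed, the difference of clustered zinc finger genes from others at equal deciles of promoter GC content, 0.44 points. Among strict island genes in equal deciles it was -19.6. In 65 the value stayed within the interval or spread of the reported one or, for the highest bin, within a fixed ratio of it. The 5.78-fold excess of chromosome 19 regions over length became 6.20 with regions of all 5 libraries, 5.26 with regions of any library, 5.42 with regions under 1 kb apart merged, 1.44 with the number expected from strict islands, 1.98 from looser islands and 1.56 from genes. The promoter share became 68.4% with all 5 libraries, 67.1% with only peaks whose −log10 p reached 10, 52.2% with any library, 59.5% with promoters of 500 bp, 68.9% with promoters of 2 kb and 79.5% with start sites of every gene type. Its difference from other chromosomes became -4.35 points with any library and -6.47 with start sites of every type. The share of clustered zinc finger genes became 13.4% with all 5 libraries, 14.2% with the stricter peaks and 47.6% with any library. Its difference from other genes became -9.53 points with any library and -32.6 among strict island genes. The share of regions inside clusters became 7.90% with all 5 libraries, 7.73% with the stricter peaks and 6.94% with cluster gaps of 100 kb. The highest bin held 44 regions with all 5 libraries. The motif share became 53.1% with loops of 1 to 12, 92.5% with runs of 2 or more G and 48.4% with all 5 libraries, and its difference from other chromosomes 3.05, 0.802 and 4.34 points. Leaving out each library in turn gave 5.72 to 5.98 for the excess, 64.6% to 67.2% for the promoter share, -12.5 to -11.6 points for its difference, 20.7% to 23.6% for the clustered genes, -21.6 to -18.6 points for their difference, 8.92% to 9.51% for the regions inside clusters, 57 to 65 for the highest bin and 53.0 to 53.8 for the median percentile. With a library left out, regions still had to be shared by 3 or more lists, which is a stricter cut. The alternatives without readthrough genes and with GC deciles were chosen after seeing the data. The cause of these shifts was not tested. No paired analysis was possible because the BG4 libraries form 1 group with no second group of samples; differences within each library are given instead.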
